A study of Mus musculus with 14 samples.

Results

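The genes described here encode collagens, laminins, proteoglycans, thrombospondins, integrins and the metalloproteases and inhibitors that act on them. These genes were measured in mouse brainstem gliomas with wild-type Ezh2 or with a Cre-induced deletion in Ezh2, which the study reported as partial. They were taken by symbol from the table of the loss-of-function experiment, which lists 3533 genes that its authors had called different between EZH2 WT and EZH2 LOF tumors. Of 48 listed genes with a symbol of these families, 3 were left out by name (Col2a1, Col11a2 and Itgam), 3 because they also stand in the table of the gain-of-function experiment (Lum, Gpc5 and Adamts15) and 3 because their mean in EZH2 WT tumors was under 10 normalized counts, which left 39. A normalized count is a gene's read count divided by the size factor of its library, so that it can be compared between tumors but not between genes of different length. Since the table was selected on the comparison of EZH2 LOF with EZH2 WT, the differences of these genes in that comparison are given as descriptions, with no test. Shares by direction, overlap and fold among the 39 genes are printed beside the same shares over the whole table, for reference only. Promoter counts are set beside all genes with a promoter window instead.

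RNA was sequenced from 14 tumors, 7 of them in the loss-of-function experiment, and only these 7 carry values for the genes described here. All 7 tumors arose in C57BL/6 mice that carried Nestin-Tv-a and p53f/f, in which the Nestin promoter drives the receptor for RCAS viruses, and in all of them RCAS-delivered Cre removed p53 in the presence of RCAS-PDGF-B. The 3 EZH2 WT tumors had the genotype Ezh2wt and the 4 EZH2 LOF tumors Ezh2f/f, in which Cre removes the exons for the catalytic SET domain of Ezh2. Only cells that carry the receptor can be infected, and cells without the receptor are not targeted. The study reported a partial Ezh2 deletion, by RNA-seq and by PCR of fixed tumor tissue and cultured neural precursors. By tissue staining it also reported less EZH2 and an almost full loss of H3K27me3 in EZH2 LOF tumors. That PCR and staining are described with mice given an shRNA against p53, not with the tumors sequenced here. Animal ages were not given in the labels. Ezh2 and Trp53 have no line in the table and were not analysed here. Replicates are single tumors by their labels, and the sources say no more about litters or days. Replicates 1, 2 and 3 of EZH2 WT and replicates 13, 14, 15 and 16 of EZH2 LOF are given in this order throughout.

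EZH2 is the catalytic subunit of the Polycomb complex PRC2, which places the repressive mark H3K27me3 on histone H3. The matrix of the normal brain holds mostly hyaluronan and chondroitin sulphate proteoglycans, while fibrillar collagens and most laminins lie in the meninges and around blood vessels. Integrins are pairs of an alpha and a beta chain that bind matrix proteins outside the cell and the cytoskeleton inside it. The ADAM, ADAMTS and MMP families hold zinc proteases that cut surface and matrix proteins, and TIMP proteins inhibit them.

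Depth differed between libraries. The reads that fell in listed genes ranged from 2763245 to 3685186 in EZH2 WT and from 281847 to 1842891 in EZH2 LOF tumors. LOF replicates 13 and 14 were the shallowest, with 281847 and 616124 reads, so that 1 read there was worth 4.58 and 2.14 normalized counts. Of markers of other cells fixed for this work, 4 of 15 microglia and macrophage genes stood in the table and all 4 were lower in EZH2 LOF (summed normalized counts 673 to 1617 in EZH2 WT and 347 to 433 in EZH2 LOF, with WT replicate 1 highest). For mural cells of vessels, 3 of the 4 listed of 12 were lower and 1 was higher (sum 525 to 1027 and 225 to 492). Of 16 fibroblast markers 4 were listed, 2 of them lower and 2 higher (sum 97.8 to 105 and 44.1 to 70.7). Endothelial markers, 2 of 14 listed, had 1 called higher and 1 lower (sum 146 to 231 and 194 to 274). All 3 listed of 10 mature oligodendrocyte markers (sum 2418 to 3360 and 1659 to 1967), both listed of 12 neuronal markers (995.5 to 1479 and 513 to 943) and the only listed of 10 choroid plexus and ependymal markers (6.12 to 61.4 and 1.19 to 8.09) were lower, and of 3 listed of 10 astrocyte markers 2 were lower and 1 higher (5168 to 8967 and 3497 to 4694). The labelled glioma was checked against 10 genes of oligodendrocyte precursors and glioma cells, of which Pdgfra, Olig2, Ptprz1 and Nkx2-2 were listed and well above 0 in all 7 libraries (sum 28905 to 48047 and 19383 to 23291). Pdgfra, Olig2 and Ptprz1 were called lower in EZH2 LOF (ratios 0.581, 0.607 and 0.622) and Nkx2-2 higher (1.82), all without overlap. None of 15 T and B cell markers stood in the table, and 4 of 10 cartilage markers did, with Col2a1, Acan and Hapln1 called higher. Hapln1 was low and overlapped between the groups (means 7.05 and 26.6, with 59.6 in LOF replicate 16). No listed marker of these lists was at 0 in any library. In bulk tumors, fewer cells of a type and less RNA per cell cannot be told apart, and the part of other cells in the differences below was not tested.

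The region in front of the gene start differed widely among these genes. CG pairs are the bases that carry DNA methylation, and starts rich in them are the usual sites of PRC2 and H3K27me3. Promoter windows were matched by symbol for 27 of the 39 genes in a RefSeq table of build GRCm38.p6, and CG was counted over the 250 bases before the start (CG reads the same on both strands, and the window with most CG was taken where a gene had several). Among 27025 genes with such a window the median was 6 CG, 92.3% held at least 1 and 40.2% at least 10. The 15 matched genes that were higher in EZH2 LOF had a median of 15 and 66.7% of them held at least 10, against a median of 8 and 50.0% for the 12 that were lower. Among genes at least 2-fold apart, the 8 higher had a median of 12.5 and the 7 lower a median of 3. Both directions held windows without any CG (Col9a1, higher, and Col3a1 and Lama2, lower), so that the ranges overlapped fully. The listed genes of each direction were not counted, so whether these medians differ from theirs was not tested. The windows below are shown because they span this range, 3 of genes higher in EZH2 LOF (Col16a1 with 21 CG, Adamts17 with 13 and Col9a2 with 9) and 3 of genes lower (Itgav with 18, Thbs2 with 3 and Col3a1 with 0). They lie at chr4:130047590-130047839, chr7:66839485-66839734, chr4:121039316-121039565, chr2:83724147-83724396 and, for Thbs2 on the minus strand, chr17:14694263-14694512, then chr1:45311288-45311537, the others on the plus strand. Capitals mark CG, the sequence runs 5′ to 3′, and the last base is the one before the gene start.
Col16a1: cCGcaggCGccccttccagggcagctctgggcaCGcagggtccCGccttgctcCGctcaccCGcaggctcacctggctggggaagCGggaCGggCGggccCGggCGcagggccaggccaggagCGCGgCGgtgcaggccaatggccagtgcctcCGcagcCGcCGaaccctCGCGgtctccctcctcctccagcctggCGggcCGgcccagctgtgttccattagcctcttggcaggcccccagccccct
Adamts17: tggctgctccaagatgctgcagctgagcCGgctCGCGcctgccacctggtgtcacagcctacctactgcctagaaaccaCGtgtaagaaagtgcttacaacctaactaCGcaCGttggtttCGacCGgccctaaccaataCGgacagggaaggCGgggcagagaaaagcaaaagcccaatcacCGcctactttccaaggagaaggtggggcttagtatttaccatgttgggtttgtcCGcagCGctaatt
Col9a2: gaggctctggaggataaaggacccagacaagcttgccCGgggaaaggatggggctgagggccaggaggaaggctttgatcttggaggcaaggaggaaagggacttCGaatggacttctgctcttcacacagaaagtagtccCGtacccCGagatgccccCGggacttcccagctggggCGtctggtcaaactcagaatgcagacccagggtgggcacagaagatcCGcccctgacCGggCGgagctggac
Itgav: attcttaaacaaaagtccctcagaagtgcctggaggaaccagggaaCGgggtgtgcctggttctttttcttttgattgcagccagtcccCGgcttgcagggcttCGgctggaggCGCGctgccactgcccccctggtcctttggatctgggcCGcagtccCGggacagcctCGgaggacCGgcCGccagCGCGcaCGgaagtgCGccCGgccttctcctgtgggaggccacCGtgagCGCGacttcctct
Thbs2: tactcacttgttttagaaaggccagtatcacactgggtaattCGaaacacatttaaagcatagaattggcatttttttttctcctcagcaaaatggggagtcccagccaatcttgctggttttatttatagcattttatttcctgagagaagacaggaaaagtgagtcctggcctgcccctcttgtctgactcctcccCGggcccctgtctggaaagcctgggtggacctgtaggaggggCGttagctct
Col3a1: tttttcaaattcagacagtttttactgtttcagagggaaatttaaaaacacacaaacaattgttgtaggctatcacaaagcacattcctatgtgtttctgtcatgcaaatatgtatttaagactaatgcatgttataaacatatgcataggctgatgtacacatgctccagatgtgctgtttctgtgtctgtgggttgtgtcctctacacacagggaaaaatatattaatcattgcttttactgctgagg
A count of CG describes these letters only. Histone marks, methylation and binding were not measured in these files.

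Of the 39 genes, 21 had a higher mean in EZH2 LOF (53.8%, against 48.9% of the listed genes) and 18 a lower one (46.2%, against 51.1%). The 2 groups of tumors did not overlap for 29 of them (74.4%, against 86.4% of the table), 16 higher (against 41.9% of the table) and 13 lower (33.3%, against 44.6%). The 86.4% is also the reference for the counts of overlap by family below. A ratio of means of at least 2 was reached by 23 (59.0%, against 27.9%), 13 of them higher (33.3%, against 19.5%) and 10 lower (25.6%, against 8.41%). Both conditions held for 12 higher genes (30.8%, against 17.4%) and 6 lower ones (15.4%, against 6.96%). The median coefficient of variation in EZH2 WT tumors was 31.6% for the 21 higher genes and 31.1% for the 18 lower ones, against 21.8% and 14.2% for the listed genes of the same direction. Within EZH2 LOF it was 20.7% and 20.3%, against 15.9% and 12.7%. The median log2 ratio was 1.12 over the 21 higher genes, against 0.87 over all listed genes that were higher. Over the 18 lower genes it was -1.08, against -0.61.

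**Figure D1:**
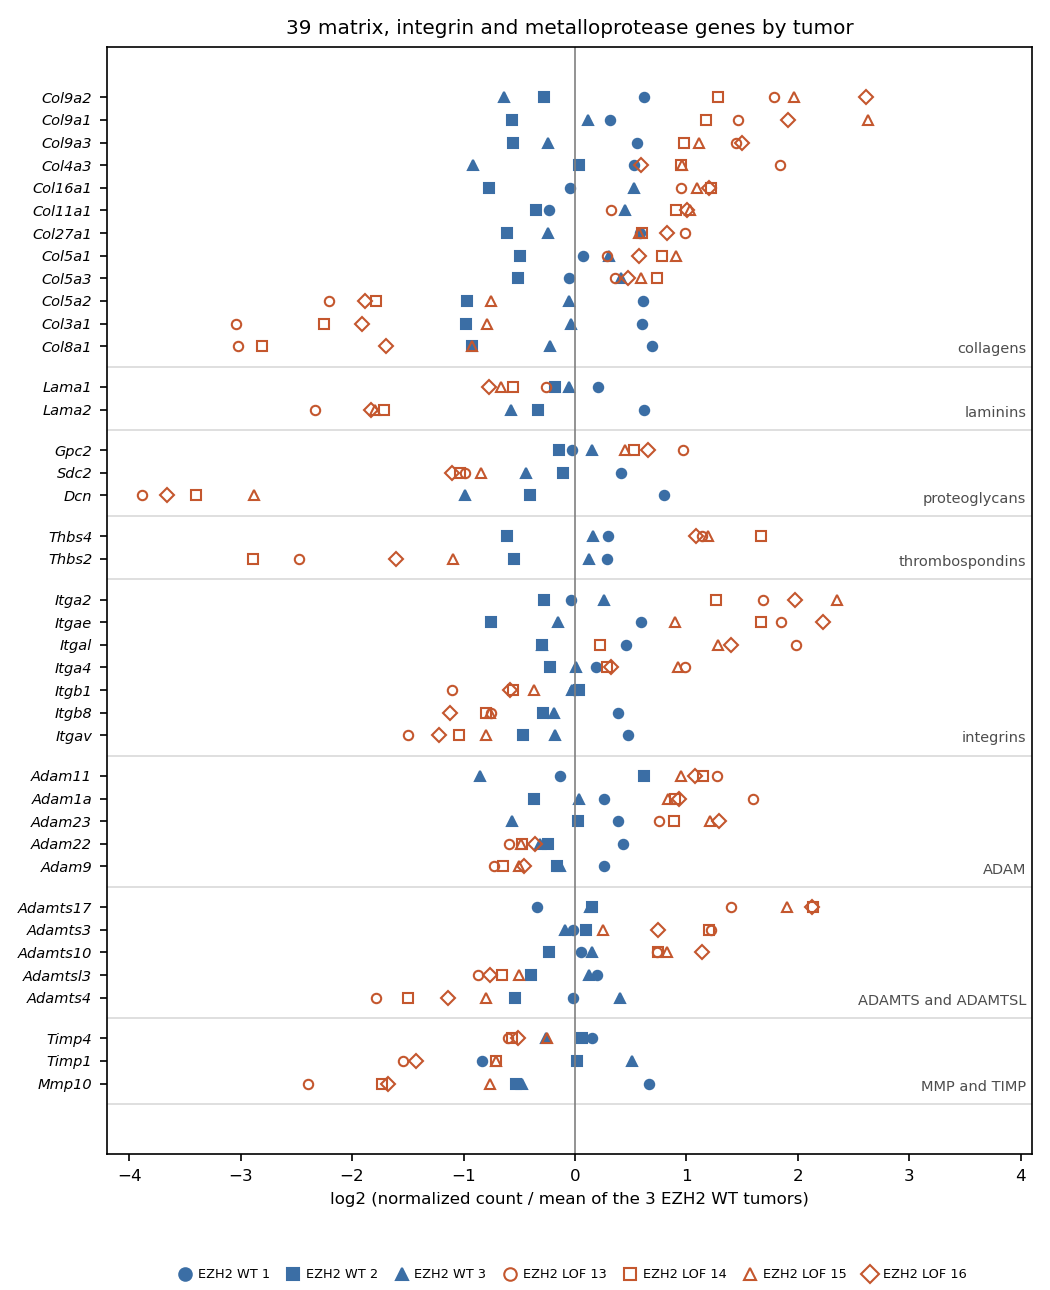
Each of the 39 genes by tumor, as log2 of the normalized count over the mean of the 3 EZH2 WT tumors, grouped by family and sorted by the ratio of means. Filled blue symbols are EZH2 WT and open orange symbols EZH2 LOF tumors, and 29 of the 39 genes show groups that do not overlap.

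The mean minimum of the rule removed only genes that were low in EZH2 WT and higher in EZH2 LOF. Just inside it stood Itgae with a mean of 11.5 in EZH2 WT, and just outside it Adam4 (8.78 in EZH2 WT, 19.9 in EZH2 LOF), Itgb7 (6.63 and 17.7) and Gpc3 (6.59 and 30.5). Counts by direction are therefore low on the higher side.

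Collagens split by chain. Of 12 collagen genes, 9 were higher in EZH2 LOF and 3 were lower, and 5 of the higher and all 3 of the lower ones differed at least 2-fold. Values of 7 of the 12 overlapped between the groups, where 86.4% of the table did not overlap. All 3 chains of type IX collagen, a collagen that decorates type II collagen fibrils in cartilage and the vitreous, were higher and did not overlap. Col9a1 measured 60.1, 32.6 and 52.3 in EZH2 WT and 133, 109, 299 and 181 in EZH2 LOF tumors. Its means were 48.3 ± 14.2 (SD, n = 3) and 181 ± 84.3 (SD, n = 4), a ratio of 3.73. Col9a2 measured 87.4, 47.0 and 36.7 against 197, 139, 223 and 349, a ratio of 3.98. Col9a3, the most abundant of the 3 chains per kb of exon, measured 373, 173 and 213 against 687, 499, 547 and 716, a ratio of 2.42. LOF replicate 14 was the lowest EZH2 LOF tumor for each chain, while the highest was replicate 15 for Col9a1 and replicate 16 for the other chains. In proportion to Col9a3, Col9a2 lay between 0.172 and 0.273 in EZH2 WT and between 0.279 and 0.488 in EZH2 LOF, and the same ratio of Col9a1 overlapped (0.161 to 0.245 and 0.193 to 0.546).

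The partners of type IX collagen in cartilage, Col2a1 and Col11a2, were left out by name and are given only as neighbours. Col2a1 was 47.9 ± 3.13 in EZH2 WT and 713 ± 126 in EZH2 LOF, and Col11a2 255 ± 201 and 1547 ± 231. Acan, which encodes aggrecan, the main proteoglycan of cartilage and also part of perineuronal nets, measured 194, 68.6 and 119 against 279.6, 478, 538 and 496. Sox9, a transcription factor of chondrocytes and of glial cells, had overlapping groups and was not called by limma.

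Col16a1, another collagen that attaches to fibrils, measured 1312, 797 and 1963 in EZH2 WT and 2621, 3167, 2903 and 3114 in EZH2 LOF. The EZH2 LOF tumors lay close together while the EZH2 WT tumors spread more than 2-fold, and the ratio of means was 2.17. Without WT replicate 2 it was 1.80. Col4a3, a basement membrane chain best known from the kidney glomerulus, was low throughout, at 23.9, 17.1 and 8.80 against 59.6, 32.1, 32.4 and 25.05. Its lowest EZH2 LOF value lay just above its highest EZH2 WT value, and the highest one came from 13 reads in LOF replicate 13.

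Among fibrillar collagens, Col11a1, Col27a1, Col5a1 and Col5a3 were 1.79, 1.69, 1.58 and 1.46 times higher in EZH2 LOF, and all 4 overlapped between groups by 1 or more tumors. Col11a1 was the highest of the collagen genes described here per kb of exon in EZH2 LOF. It measured 2932, 2692 and 4685 against 4289.6, 6424, 7024 and 6904, and only LOF replicate 13 lay below an EZH2 WT tumor. Col27a1, a fibrillar collagen of cartilage, measured 142, 62.2 and 80.2 against 188, 143, 141 and 168, and LOF replicate 15 lay just below WT replicate 1. Type V collagen, which sets the width of collagen fibrils, was split between its chains. Col5a1 measured 479, 322 and 563 against 555, 782, 853 and 675. Col5a3 measured 179, 130.1 and 247 against 238, 308, 279.5 and 258. The third chain, Col5a2, went the other way, at 678, 226 and 427 against 96.2, 128, 263 and 120.5. In every EZH2 WT tumor Col5a2 stood between 0.703 and 1.42 times Col5a1, and in every EZH2 LOF tumor between 0.164 and 0.309 times. This ratio is taken within a library and does not depend on its size factor. The ratio of Col5a3 to Col5a1 stayed between 0.373 and 0.439 in EZH2 WT and between 0.328 and 0.430 in EZH2 LOF, and that of Col11a1 to Col5a1 between 6.12 and 8.36 and between 7.74 and 10.2.

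Col3a1, the fibrillar collagen of soft connective tissue and vessel walls, and Col8a1, a short-chain collagen of vessels and of the cornea, were lower with Col5a2. Col3a1 measured 1257, 421 and 807 in EZH2 WT against 101, 173, 479 and 221 in EZH2 LOF. Col8a1 measured 362, 118 and 193 against 27.5, 32.1, 118 and 69.2. Ratios of means were 3.40 for Col3a1, 3.63 for Col8a1 and 2.92 for Col5a2, in each case lower in EZH2 LOF, and yet all 3 genes overlapped between the groups through a single pair of tumors. WT replicate 2 was the lowest EZH2 WT tumor and LOF replicate 15 the highest EZH2 LOF tumor for each of them. LOF replicate 15 stood at 2.90, 2.76 and 2.29 times the mean of the other EZH2 LOF tumors for Col3a1, Col8a1 and Col5a2. Leaving out either tumor of this pair had to end the overlap and raise the ratios. They were 5.02, 5.22 and 3.86 without LOF replicate 15 and 4.24, 4.49 and 3.63 without WT replicate 2. Without the 2 shallow libraries, LOF replicates 13 and 14, the ratio of Col8a1 was 2.39. Col3a1 (chr1:45311538-45349706) and Col5a2 (chr1:45374331-45503282), which lie on opposite strands of the same stretch of chromosome 1, stood in a ratio of 1.85 to 1.89 in EZH2 WT tumors and of 1.05 to 1.83 in EZH2 LOF tumors.

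**Figure D2:**
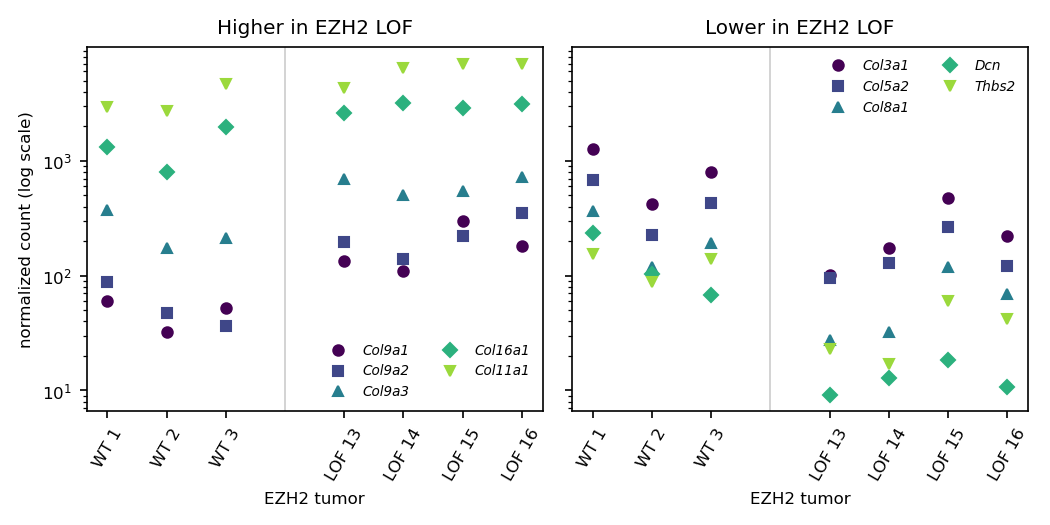
Normalized counts on a log scale in each tumor for 5 collagen genes that were higher (left) and 5 matrix genes that were lower (right) in EZH2 LOF. Each symbol is 1 gene in 1 tumor. On the right, LOF replicate 15 lies above the other EZH2 LOF tumors for all 5 genes.

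Dcn (chr10:97479500-97518163, plus strand, mm10) showed the largest ratio of the 39 genes. It encodes decorin, a small leucine-rich proteoglycan made by fibroblasts that binds collagen fibrils and TGF-beta. Dcn measured 236, 103 and 68.3 in EZH2 WT and 9.17, 12.8, 18.4 and 10.7 in EZH2 LOF. The means were 136 ± 88.6 (SD, n = 3) and 12.8 ± 4.03 (SD, n = 4), which is 10.6-fold lower in EZH2 LOF, and every EZH2 LOF tumor lay below every EZH2 WT tumor. The EZH2 LOF values rest on 2, 6, 25 and 9 reads and the EZH2 WT values on 424, 271 and 132. WT replicate 1 set part of this ratio, which was 6.69 without it. Lum, a related proteoglycan outside the 39 genes because it also stands in the gain-of-function table, was lower in EZH2 LOF as well (56.9 ± 34.7 and 7.77 ± 4.16).

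The other proteoglycans of the set sit on the cell surface. Sdc2, a syndecan with heparan sulphate chains, measured 460.5, 320.5 and 255 against 174, 169, 193 and 161 and was 1.98-fold lower without overlap. Gpc2, a glypican anchored by a lipid and known from developing neurons, measured 75.7, 70.2 and 85.9 against 151, 111, 105 and 122, a ratio of 1.58 without overlap. The value of Gpc2 is uncertain, since 55.6% of its exon bases overlap the gene model Gm43720 on the same strand and 49.7% of its 50-base words occur in another gene.

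Both laminin genes were lower and neither overlapped, as for 86.4% of the table. Lama2 (chr10:26981285-27616942, minus strand) encodes the alpha chain of the laminin of muscle, nerve and vessel basement membranes and measured 247, 128 and 108 against 32.1, 49.2, 46.3 and 45.3, which is 3.73-fold lower. Lama1, the alpha chain of the early embryo that persists in the pial surface, measured 120.3, 91.8 and 99.9 against 87.1, 70.7, 65.5 and 60.8, a ratio of 0.683. Per kb of exon the mean levels of the pair were close in EZH2 WT (9.87 for Lama2 and 10.7 for Lama1) and apart in EZH2 LOF (2.65 and 7.33). The ratio of Lama1 to Lama2 in normalized counts, with no correction for length, was 0.486 to 0.923 in EZH2 WT and 1.34 to 2.71 in EZH2 LOF tumors.

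The 2 thrombospondins went opposite ways. Thbs2, a matricellular protein that restrains vessel growth and is made by fibroblasts and astrocytes among others, measured 155, 87.2 and 139 against 22.9, 17.1, 59.6 and 41.7 and was 3.60-fold lower. LOF replicates 13 and 14 gave only 5 and 8 reads for it. Thbs4, which astrocytes and tendon make, measured 25.6, 13.7 and 23.3 against 45.8, 66.4, 47.8 and 44.1, a ratio of 2.45. Neither overlapped between the groups.

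Of 7 integrin genes, 4 alpha chains were higher and Itgav, Itgb1 and Itgb8 were lower. Itgav (chr2:83724397-83806917, plus strand), the alpha chain that binds vitronectin and latent TGF-beta, had the highest level per kb of exon of the 39 genes in EZH2 WT, 888 normalized counts per kb, against 409 in EZH2 LOF. It measured 13303, 6911 and 8401 against 3368, 4640.1, 5483 and 4091, which is 2.17-fold lower, and 1.74-fold lower without WT replicate 1. Itgb8, the beta chain that pairs with Itgav to release TGF-beta from its latent complex, measured 3618, 2268 and 2435 against 1649.9, 1599.5, 1632 and 1277, a ratio of 0.555. Itgb1, the beta chain shared by most integrins that bind collagen and laminin, varied little in EZH2 WT, at 3139.8, 3251 and 3115, and measured 1471, 2156, 2458 and 2118 in EZH2 LOF, a ratio of 0.647. None of the 3 overlapped between the groups. The ratio of Itgb8 to Itgav, 0.272 to 0.328 in EZH2 WT and 0.298 to 0.490 in EZH2 LOF, overlapped.

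The higher alpha chains were all at low levels, at most 20.7 normalized counts per kb of exon in EZH2 LOF. Itga2, which forms a collagen receptor with Itgb1, measured 13.9, 11.8 and 17.1 against 45.8, 34.3, 72.8 and 56.1, a ratio of 3.67. Itga4, which with Itgb1 binds VCAM1 and fibronectin, measured 207, 156 and 183 against 362, 223, 346 and 228, a ratio of 1.59. With their common partner lower, Itga2 over Itgb1 ranged from 0.00362 to 0.00548 in EZH2 WT and from 0.0159 to 0.0312 in EZH2 LOF, and Itga4 over Itgb1 from 0.0481 to 0.0660 and from 0.103 to 0.246. Both ratios had to separate, since these alpha chains were higher and Itgb1 lower, each without overlap. Itgae and Itgal are alpha chains of leukocytes, the first of T cells within epithelia and the second of LFA-1. Itgae measured 17.3, 6.83 and 10.3 against 41.2, 36.4, 21.3 and 53.7, a ratio of 3.32. Itgal measured 42.9, 25.4 and 25.4 against 124, 36.4, 75.8 and 82.3, a ratio of 2.55, and LOF replicate 14 lay below WT replicate 1. Itgb7, the partner of Itgae, was 6.63 ± 2.16 and 17.7 ± 5.50, under the minimum of the rule. Itgam, a leukocyte alpha chain that was left out by name, was lower instead, at 231 ± 140 and 84.9 ± 32.2.

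**Figure D3:**
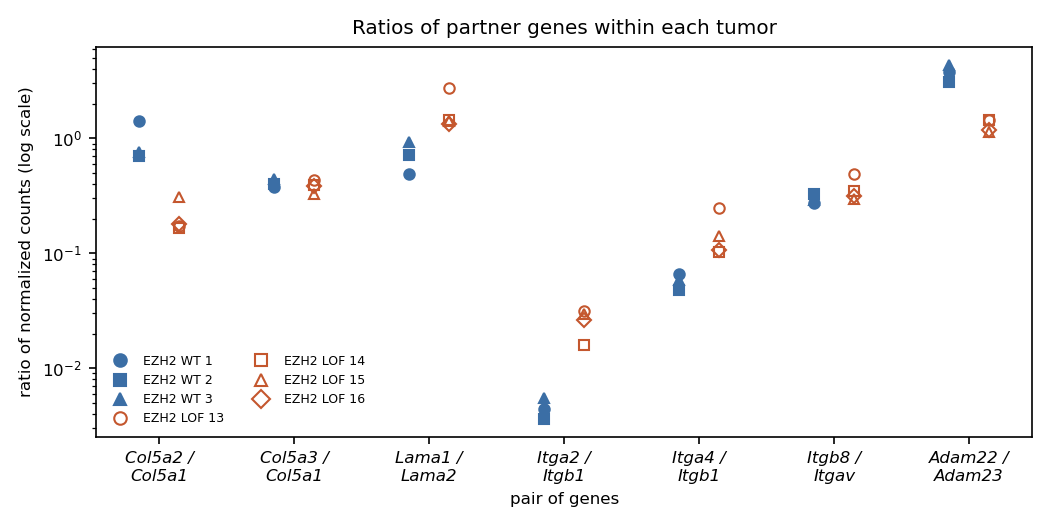
Ratio of the normalized counts of 7 pairs of genes within each tumor, on a log scale, with EZH2 WT as filled and EZH2 LOF as open symbols. The groups are apart for Col5a2 over Col5a1, Lama1 over Lama2, Itga2 and Itga4 over Itgb1 and Adam22 over Adam23, and overlap for Col5a3 over Col5a1 and Itgb8 over Itgav. For Itga2 and Itga4 over Itgb1 and Adam22 over Adam23 this was fixed in advance, since the genes of each pair went opposite ways without overlap.

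All 5 ADAM genes were without overlap (86.4% of the table was), 3 of them higher and at least 2-fold so. Adam11, Adam22 and Adam23 encode neuronal surface proteins that lack an active protease site. Adam11 measured 55.1, 93.3 and 33.6 against 147, 135, 117 and 128, a ratio of 2.17, and 1.77 without WT replicate 3. Adam23 measured 409, 318 and 212 against 527, 580.3, 727 and 764, a ratio of 2.08. Adam22, which like Adam23 is a receptor for the secreted LGI proteins, measured 1556, 976 and 924 against 765, 831, 822 and 898, a ratio of 0.720. The highest EZH2 LOF and lowest EZH2 WT values of Adam22 were close, and its log2 ratio was -0.47 over all tumors and -0.20 without WT replicate 1. The ratio of Adam22 to Adam23 was 3.07 to 4.37 in EZH2 WT and 1.13 to 1.45 in EZH2 LOF. This ratio had to separate, since both genes went opposite ways without overlap. Adam9, an active protease that sheds surface proteins, measured 2019, 1510.2 and 1536 against 1022, 1077, 1191 and 1232, a ratio of 0.669. Adam1a, known from sperm in the mouse, measured 34.5, 22.4 and 29.5 against 87.1, 53.5, 51.5 and 54.9, a ratio of 2.14. Its value is uncertain, since 63.7% of its exon bases overlap other gene models on the same strand and 77.8% of its 50-base words are shared. Among the 37 genes other than Gpc2 and Adam1a the largest share of such words was 8.37%.

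The secreted ADAMTS proteases and the related Adamtsl3 showed 3 higher and 2 lower genes, none with overlap, as for 86.4% of the table. Adamts17, mutated in a human short stature syndrome with eye defects, measured 26.2, 36.8 and 36.2 against 87.1, 146, 124 and 144, a ratio of 3.79 and the largest of this family. Adamts10, mutated in a related syndrome and linked to fibrillin microfibrils, measured 228, 187 and 244 against 367, 368, 389 and 485, a ratio of 1.83. Adamts3, which trims procollagen and processes VEGF-C, measured 85.7, 92.9 and 81.2 against 202, 199, 103 and 146. Its log2 ratio was 0.91, and 0.52 without the shallow LOF replicates 13 and 14, which held its highest values. Adamts4, an aggrecanase that cuts the chondroitin sulphate proteoglycans of brain and cartilage, measured 203, 141 and 272 against 59.6, 72.8, 118 and 93.0 and was 2.39-fold lower. Adamtsl3, which has no protease domain, measured 791, 525 and 749 against 376, 437, 486 and 406, a ratio of 0.619.

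The only MMP among the 39 genes and both TIMP inhibitors were lower. Mmp10 (chr9:7502342-7510242, plus strand), stromelysin 2, measured 574, 251 and 259.8 against 68.7, 109, 213 and 113 and was 2.87-fold lower, with LOF replicate 15 just below the lowest EZH2 WT tumor. Timp1, the inhibitor induced in injury and inflammation, measured 45.1, 81.5 and 114 against 27.5, 49.2, 49.3 and 29.8. Timp4, an inhibitor found in brain and heart, measured 404, 379 and 303 against 238, 244, 304 and 254. Both inhibitors overlapped, Timp1 with a ratio of 2.06 that was 1.63 without WT replicate 3, and Timp4 with 1.39, both lower in EZH2 LOF. No fibulin or fibrillin gene met the rule.

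Single tumors took the extreme values of many genes at once. Of the 18 lower genes, 15 (83.3%) had their highest EZH2 WT value in WT replicate 1, against 51.9% of all listed genes that were lower. Their highest EZH2 LOF value lay in LOF replicate 15 for 13 (72.2%, against 34.0%) and their lowest in LOF replicate 13 for 14 (77.8%, against 43.9%). Of the 21 higher genes, 14 had their lowest EZH2 WT value in WT replicate 2 (66.7%, against 45.8%) and 11 their highest in WT replicate 1 (52.4%, against 28.6%), while no EZH2 LOF tumor was the highest for more than 8 of them. Mmp10, Col3a1, Col5a2, Col8a1 and Thbs2 all ranked WT replicate 1 above replicate 3 and replicate 3 above replicate 2, and LOF replicate 15 stood at 2.19 to 2.90 times the mean of the other EZH2 LOF tumors for each. This EZH2 WT order was not particular to them. Genes of both directions shared it, such as Itgav and Itgb8 (lower) and Col9a1 and Itga4 (higher). For Col9a1, LOF replicate 15 stood at 2.12 times the mean of the other EZH2 LOF tumors. WT replicate 1 also held the highest EZH2 WT sum in 7 of the 10 marker lists with listed genes, those of glioma cells, astrocytes, oligodendrocytes, microglia, endothelial cells, mural cells and chondrocytes. Without WT replicate 1, the genes at least 2-fold apart numbered 14 higher and 9 lower. Without LOF replicate 15 they were 13 and 11.

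**Figure D4:**
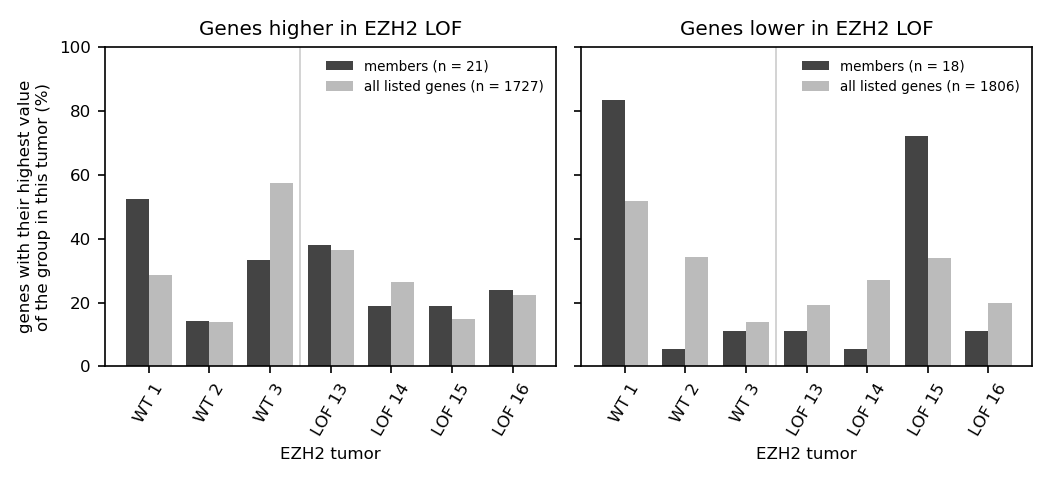
Share of genes whose highest value within their group lay in each tumor, as bars from 0, for the genes described here (dark) and all listed genes (light). The left panel holds genes higher and the right panel genes lower in EZH2 LOF. On the right, WT replicate 1 takes 83.3% and LOF replicate 15 takes 72.2% of the 18 lower genes.

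Other genes of the matrix and of adhesion were counted from 7 lists with 171 genes, of which 45 stood in the table. Limma with Benjamini-Hochberg adjustment over the table called 23 of them higher and 20 lower, where it called 98.6% of all listed genes (47.9% higher and 50.7% lower), since these had been selected on the same comparison. Of 8 listed proteoglycans and link proteins 6 were called higher and 1 lower. Acan was 3.52 and Hapln3, a link protein, 2.59 times higher. Ogn, a small leucine-rich proteoglycan like Dcn and Lum, was 2.47 times higher, at 7.29 ± 2.09 and 18.04 ± 5.51, where Dcn and Lum were lower. Ptprz1, a receptor phosphatase with chondroitin sulphate chains, was 1.61-fold lower. Of 3 listed hyaluronan genes the synthases Has3 and Has1 were 3.07 and 2.83 times higher, and Hyal2, a hyaluronidase, was lower at a ratio of 0.697.

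Of 9 listed glycoproteins, 4 were called higher and 5 lower. Spp1, which encodes osteopontin, a ligand of integrins, fell from 422 ± 89.9 to 56.9 ± 21.2, which is 7.42-fold, and Ltbp2, a binding protein related to those of latent TGF-beta, fell 3.82-fold. The ratio of Ltbp2 rests on low values, 0 in LOF replicate 13 and at most 12.5 in any EZH2 LOF tumor. Eln, the gene of elastin, and Emilin1 of elastic fibres rose 2.59 and 2.46 times. Of 5 listed enzymes that modify collagen, 3 were called higher and 1 lower. Pcolce, which enhances the trimming of procollagen, rose from 77.7 ± 26.7 to 399 ± 135, and P3h3, a collagen prolyl hydroxylase, rose 1.71 times, while Loxl2, a collagen crosslinking oxidase, was 1.82-fold lower with overlap.

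Of 9 listed genes of focal adhesions, 5 were called higher and 4 lower. Tns2, a tensin that binds the tails of beta integrins, rose 4.31 times. Fermt2, Rsu1 and Lims1, which act with the beta tails or with ILK, fell at ratios of 0.636, 0.664 and 0.670. Of 8 listed genes of the plasminogen system, cathepsins and protease inhibitors, 7 were called lower and 1 higher. Htra1, a secreted serine protease, fell 4.58-fold, Plat, tissue plasminogen activator, 2.15-fold and the lysosomal proteases Ctsl and Ctsd 2.09-fold and 1.98-fold. Reck, a membrane inhibitor of metalloproteases, rose 1.91 times. Of 3 listed TGF-beta genes Tgfb1 was called higher (1.91 times) with Tgfbi, and Ctgf was called lower.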

How the data were processed

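RNA of flash-frozen tumors had been depleted of rRNA and sequenced as stranded single-end 50 bp reads. Per the submitters' processing notes and the study's methods, Trim Galore and FastQC served for trimming and quality, STAR for alignment to mm10, HTSeq for counting and DESeq2 for testing, with versions not given in the sources used here. For each library the authors deposited signal values, that is gene counts divided by the size factor of each library, with group means, fold changes and p-values that were not used, for genes they had called. Values were whole multiples of 1 read in 100% of the genes of all 7 libraries (tolerance 0.001 reads). A coded check of the files accepted this for 5 of the 7. All value columns had a sample (0 unmapped). In the table, 20 repeated lines were merged.

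Coordinates are of mm10, and 28 of 39 genes shared a gene end with RefSeq GRCm38.p6. Ratios are of group means of normalized counts. Limma (version 3.58.1, R 4.3.3) tested log2(value + 1), two-sided, over all 3533 genes, with a call at an adjusted p under 0.05. This is lenient, since genes outside the table were not counted. An alternative adjusted over 55450 annotated genes. EdgeR (4.0.16) on recovered reads called 3530 genes, and DESeq2 (1.42.0) was a further alternative. P-values measure only the spread between these tumors. Only the limma fit was tested on simulated counts, in which most genes were unchanged, unlike in this table.

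The members, lists and rules were chosen with earlier results of these data known. Values in every tumor were given for genes at least 2-fold apart without overlap and for partners of 1 complex. Of the other lists, up to 4 called genes with the largest ratio and no overlap were named, and Loxl2, Reck, Sox9, Tgfbi and Ctgf, like the values of the other members, were added after they were seen. Shared reads were gauged by 50-base words. The gain-of-function experiment was normalized apart and not used for levels.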

Additional observations from a re-analysis of the deposited data

Results flagged for a closer look

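Within the 4 EZH2 LOF tumors, the gap from the highest or lowest tumor to the next, over the whole range, was examined for all 39 genes, and chance alone passes the limit in about 1 of 20 such groups. It passed in 3 genes. Adam1a was highest in LOF replicate 13 at 87.1, with the next tumor at 54.9. Itgb8 was lowest in LOF replicate 16 at 1277, with the next at 1599.5. Thbs4 was highest in LOF replicate 14 at 66.4, with the next at 47.8. The 3 values come from 3 different tumors, and those of Adam1a and Thbs4 rest on 19 and 31 reads.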

How the results depend on the processing

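No paired analysis was possible because the EZH2 WT replicates (1 to 3) and the EZH2 LOF replicates (13 to 16) share no number. Adjusting over all annotated genes in place of the table left 347 higher and 219 lower calls (main 1694 and 1790). Without LOF replicates 13 and 14 together, lower calls numbered 1132 over the table and 11 among the genes of the other lists (main 20). Leaving out single tumors gave 1315 to 1638 higher and 1380 to 1684 lower calls. For the 39 genes, 507 alternative values were computed. None changed direction, but the genes had been selected on this comparison. Over all listed genes the share higher in EZH2 LOF also stayed at 48.9% under each scaling and omission of tumors. Of the 507 values, 4 moved by more than the spread between replicates. These were Dcn (log2 ratio -2.74), Col27a1 (1.17) and Adam22 (-0.20) without WT replicate 1 and Adamts3 (0.52) without LOF replicates 13 and 14. Scaling by the total of listed reads moved the median log2 ratio of all genes by 0.14 and gave 21 higher and 11 lower genes without overlap (main 16 and 13). The share of all listed genes without overlap under that scaling is not given here. A filter on the calls at a mean of at least 10 over the 7 libraries removed none of the 3533 listed genes. Low reads in LOF replicate 13 limit Dcn, Thbs2, Col8a1, Timp1 and Lama2, which had 2 to 7 reads there.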
